A study of Homo sapiens with 6 samples.

Results

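The mitochondrial genome is kept apart from the nuclear DNA, and its transcripts were compared here between gastric cancer cells with and without extra FN1 3′-UTR. The members were the rows of the deposited gene table whose first listed chromosome was MT, which gave 37 of 39739 rows. They comprised 13 coding rows, 2 rRNA rows and 22 tRNA rows, and all 37 matched GENCODE 29 in coordinates and strand on GRCh38.

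HGC27 is an established human gastric cancer cell line. Cells that stably overexpressed the FN1 3′-UTR after lentiviral infection and puromycin selection (HGC27-FN1 3′-UTR) were compared with HGC27-control cells, 3 libraries a group. The cells were described as puromycin-resistant cells, not as a clone, and the labels name the genotype of the others only as control, so what those cells carried was not given in the sources used here. The FN1 3′-UTR is the untranslated end of the fibronectin mRNA, overexpressed here without the protein-coding part. Nothing in the labels says that the 3 libraries of a group came from separate cultures, so the p-values measure only the spread between these libraries, which may be technical.

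Human mitochondrial DNA is a small circle that is copied into long RNAs from both strands. Most genes are read from the heavy-strand promoter region as 1 polycistronic RNA, in which tRNAs lie between the coding genes and are cut out to release them. The coding genes make core subunits of complexes I, III, IV and V, the membrane machines of respiration and ATP synthesis, and the rRNAs and tRNAs serve the mitochondrial ribosome. Because neighbouring genes begin as 1 precursor, differences in the levels of mature RNAs within a strand are usually set after transcription, at processing, polyadenylation or decay.

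In the annotation 12 coding rows, both rRNA rows and 14 tRNA rows lay on the + strand of the reference and are called heavy-strand rows, and MT-ND6 and 8 tRNA rows lay on the other strand and are called light-strand rows. Several coding rows end without a full stop codon, which polyadenylation completes. The last 24 bases (GENCODE 29 transcripts, GRCh38) are shown for 6 rows whose share of the coding reads did not overlap between groups and for MT-ND6, the light-strand row, 5′ to 3′ on the coding strand, with the terminal codon or its incomplete remainder in capitals.
MT-ND2, MT:5488-5511 (+): ccccttttatactaataatcttaT
MT-CO1, MT:7422-7445 (+): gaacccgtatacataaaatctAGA
MT-CO2, MT:8246-8269 (+): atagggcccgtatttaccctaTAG
MT-ND3, MT:10381-10404 (+): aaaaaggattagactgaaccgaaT
MT-ND4, MT:12114-12137 (+): acatcattaccgggttttcctctT
MT-CYB, MT:15864-15887 (+): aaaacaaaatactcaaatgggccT
MT-ND6, MT:14149-14172 (-): attgagattgctcgggggaatAGG
The length was not a multiple of 3 in 6 of the 13 coding rows, and 7 ended in a complete codon, AGA in MT-CO1 and AGG in MT-ND6. The incomplete ends were those of MT-ND3 and MT-ND4 (higher share), MT-ND2 and MT-CYB (lower share), and MT-ND1 and MT-CO3 (overlapping share). Whether the ends bear on the shares was not tested. MT-ND6 was 35.6% G and 7.05% C, whereas each of the 12 heavy-strand coding rows held more C than G.

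MT-ND4L and MT-ND4 are shown because they are made as 1 bicistronic mRNA and moved together below. They share 7 bases, in capitals.
MT-ND4L, last 24 bases, MT:10743-10766 (+): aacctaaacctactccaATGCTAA
MT-ND4, first 24 bases, MT:10760-10783 (+): ATGCTAAaactaatcgtcccaaca
MT-ATP8 and MT-ATP6, the other bicistronic pair, share 46 bases, and MT-ATP6 and MT-CO3 share 1 base. How reads on shared bases were counted was not given in the sources used here.

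The libraries held 16357085 to 37037532 assigned reads, of which 877838 to 2295477 fell on mitochondrial rows. The fewest reads on any mitochondrial row in any library was 48, on MT-TI. FN1 rose from 0.516 ± 0.0370 RPKM in HGC27-control cells to 0.780 ± 0.0371 RPKM in HGC27-FN1 3′-UTR cells (mean ± SD, n = 3; log2 fold change 0.52, limma adjusted p = 0.029). RPKM is reads per kilobase of the row per 1000000 assigned reads. VIM, the mesenchymal filament gene, was at 286 to 324 RPKM in all 6 libraries, the blood marker PTPRC at 0.00489 to 0.0164 RPKM and the endothelial marker PECAM1 at 0. The 5 epithelial markers EPCAM, CDH1, KRT8, KRT18 and KRT19 were at 0.0575 to 2.29 RPKM in HGC27-control cells and 0.604 to 14.6 RPKM with the extra 3′-UTR. Each of the 5 was higher there without overlap between groups. Their log2 fold changes ran from 1.83 for CDH1 to 4.11 for KRT18 (limma adjusted p of 0.0035 or less). The part of this difference between the cells in the results below was not tested.

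The mitochondrial rows together took 5.37%, 6.41% and 6.72% of the assigned reads in HGC27-FN1 3′-UTR cells and 6.96%, 6.58% and 6.20% in HGC27-control cells. The groups overlapped. The means were 6.17% ± 0.709 and 6.58% ± 0.379 (SD, n = 3). HGC27-FN1 3′-UTR replicate 1 had both the lowest share and the fewest assigned reads, and without it the mean of that group was 6.57%. The control library with the fewest reads, replicate 1, had the highest share of the 6. Measured per length, the same rows took 22.5% to 27.5% of the summed RPKM, and 14 to 16 of the 20 rows with the highest RPKM in a library were mitochondrial.

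The make-up of the mitochondrial reads by RNA class was close to the same in all libraries. Coding rows held 88.9% to 89.8% of them, rRNA rows 7.77% to 8.57% and tRNA rows 2.34% to 2.53%, and both groups overlapped in each class. The libraries were made with a kit for mRNA, so the share of rRNA and tRNA here describes these libraries and not the abundance of those RNAs in the cell.

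Among the coding rows the 2 subunits of the ATP synthase stood highest. In HGC27-control cells the order by mean RPKM was MT-ATP8, MT-ATP6, MT-CO3, MT-ND1, MT-ND4L, MT-CO2, MT-ND4, MT-ND2, MT-CO1, MT-CYB, MT-ND3, MT-ND6 and MT-ND5, from 14337 down to 1861. Neighbours in this order overlapped between libraries for MT-ATP8 and MT-ATP6, MT-CO3 and MT-ND1, MT-CO2 and MT-ND4, and MT-CYB and MT-ND3. In HGC27-FN1 3′-UTR cells MT-ND4L ranked 3 instead of 5 by its mean, but it overlapped MT-CO3, and MT-CO3 overlapped MT-ND1, so this place was not resolved. MT-ND4 and MT-CO2 exchanged ranks 6 and 7, with overlap in both groups, and MT-ND3 stood above MT-CYB, without overlap. The highest coding row was 7.0 to 8.5 times the lowest within a library, although all 12 heavy-strand coding rows are read from the same strand.

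**Figure D1:**
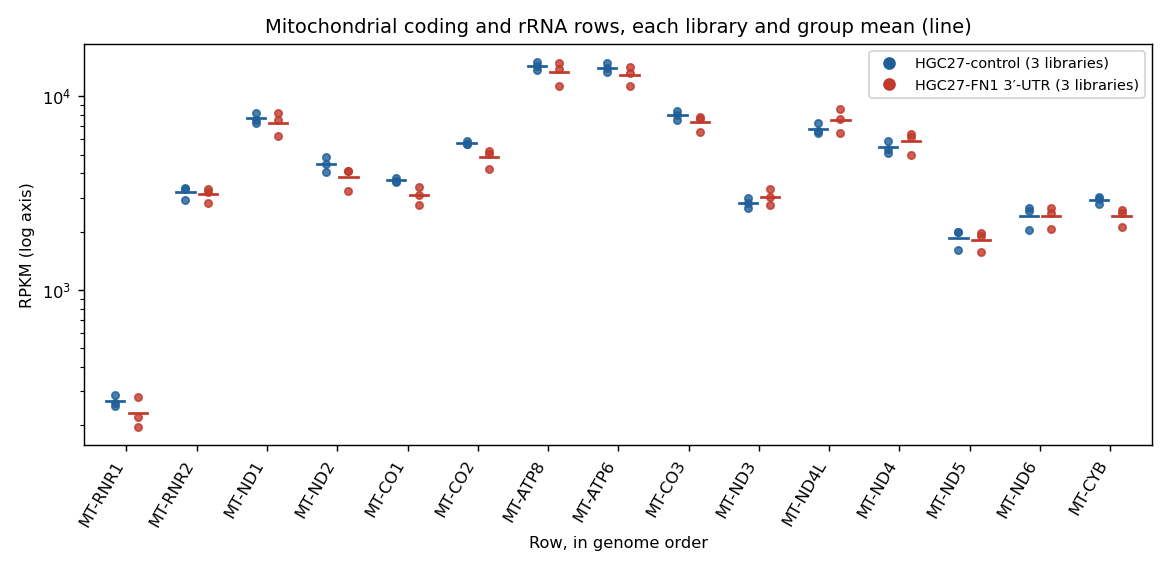
RPKM on a log axis of the 13 coding and 2 rRNA rows of the mitochondrial genome in genome order, with 1 point per library (blue, 3 HGC27-control libraries; red, 3 HGC27-FN1 3′-UTR libraries) and a line at each group mean. MT-ATP8 and MT-ATP6 are highest in both groups, MT-RNR1 is lowest, and the red points of MT-CO1, MT-CO2 and MT-CYB lie below all blue points.

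No mitochondrial row passed the test for a difference in level. In limma on log2(RPKM + 0.1), with an adjusted p under 0.05 required, 0 of 37 rows were called higher and 0 lower, where 5.62% of all 23299 rows tested were called higher and 7.36% lower. At an unadjusted p under 0.05 the counts were 0 higher and 3 lower, MT-CO1, MT-CO2 and MT-CYB, against 12.0% and 17.6% of all rows tested. Scaling each library to its mitochondrial reads left 382 calls over all rows, of which 77.7% were higher, against 3025 calls and 43.3% as reported, and median-ratio scaling gave 56.0% higher. Under both of these scalings, too, 0 mitochondrial rows were called in either direction.

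The limma voom fit on the reads recovered from the RPKM values, whose calls covered 21.9% of all rows tested, called 6 of the 37 mitochondrial rows. It called MT-ND2, MT-CO1, MT-CO2, MT-CYB and MT-TS1 lower (background 13.2%) and MT-TE higher (background 8.76%), with log2 fold changes from -0.27 for MT-CYB to 0.27 for MT-TE. Its estimates were close to those on RPKM, but its standard errors were smaller: 0.046 against 0.087 for MT-CYB on the log2 scale. Whether these rows differ in level therefore depended on how the spread was estimated.

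The 4 rows whose groups did not overlap in RPKM were all lower in HGC27-FN1 3′-UTR cells: MT-CO1, MT-CO2, MT-CYB and MT-TS1. That is 4 of 37, where 21.7% of all rows tested had lower, 14.3% higher and 36.0% either lower or higher values without overlap, so the members' share was below the background. In bulk RNA a lower level can come from fewer cells of a type or from less RNA per cell, and these cannot be told apart.

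MT-CYB makes cytochrome b, the only mitochondrially encoded subunit of complex III. Its RPKM was 2108, 2511 and 2592 in HGC27-FN1 3′-UTR cells and 3014, 2936 and 2777 in HGC27-control cells. The highest of the first group was below the lowest of the second, and the log2 fold change was -0.28 (SE 0.087, limma adjusted p = 0.085).

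MT-CO1 makes the catalytic subunit of cytochrome c oxidase, complex IV. Its RPKM was 2756, 3102 and 3418 in HGC27-FN1 3′-UTR cells and 3799, 3651 and 3608 in HGC27-control cells, a log2 fold change of -0.26 (SE 0.083, limma adjusted p = 0.094). MT-CO2, the subunit that takes electrons from cytochrome c, was at 4224, 5068 and 5242 RPKM against 5884, 5698 and 5652 RPKM (log2 fold change -0.25, SE 0.089, limma adjusted p = 0.12). In MT-CYB, MT-CO1 and MT-CO2 the lowest value came from HGC27-FN1 3′-UTR replicate 1, the library with the lowest mitochondrial share. Without that library their log2 fold changes were -0.19, -0.18 and -0.16. MT-CO3, the third subunit of complex IV, overlapped between groups, at 6577 to 7844 RPKM against 7590 to 8423 RPKM.

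The 7 coding rows of complex I, the NADH dehydrogenase, did not move as 1 group. Their log2 fold changes ran from -0.23 for MT-ND2 to 0.15 for MT-ND4L, with MT-ND3 at 0.10, MT-ND4 at 0.09, MT-ND6 at -0.01, MT-ND5 at -0.04 and MT-ND1 at -0.08. None passed the test, and all 7 overlapped in RPKM. Leaving out 1 library moved them from -0.29 to -0.11 for MT-ND2, 0.05 to 0.26 for MT-ND4L, 0.04 to 0.17 for MT-ND3 and 0.02 to 0.21 for MT-ND4. The median over the 7 rows was -0.01, against -0.04 over all rows tested. The fold changes of MT-ND1, MT-ND5 and MT-ND6 turned sign when libraries were scaled to their mitochondrial reads.

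MT-ATP6 and MT-ATP8, the mitochondrial subunits of the ATP synthase, complex V, had log2 fold changes of -0.13 and -0.11. In HGC27-FN1 3′-UTR cells MT-ATP8 was at 11317, 13848 and 14915 RPKM and in HGC27-control cells at 15014, 14273 and 13726 RPKM. The groups overlapped. Over all 13 coding rows, 3 fold changes were above 0 and 10 below, with a median of -0.11, and the 95% intervals together reached from -0.51 for MT-ND2 to 0.43 for MT-ND4L.

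**Figure D2:**
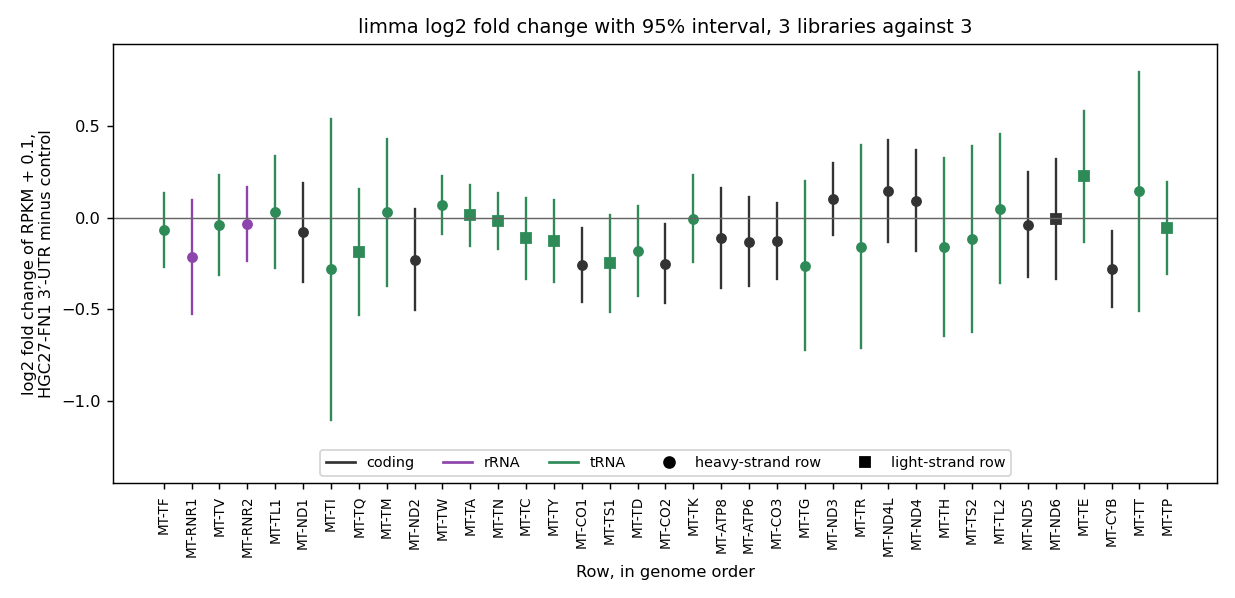
log2 fold change of RPKM + 0.1 (HGC27-FN1 3′-UTR minus HGC27-control, limma, 3 libraries a group) with its 95% interval for the 37 mitochondrial rows in genome order. Black marks coding, purple rRNA and green tRNA rows, circles heavy-strand and squares light-strand rows. The intervals of 3 rows, MT-CO1, MT-CO2 and MT-CYB, lie below 0, and the tRNA rows with few reads, such as MT-TI, have the widest.

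The levels of the coding rows went up and down together between libraries, so each row was also taken as a share of the coding reads of its own library. The median coefficient of variation of the 13 coding rows was 12.1% in RPKM and 2.73% in shares for HGC27-FN1 3′-UTR cells, and 5.83% and 1.96% for HGC27-control cells. On this scale the groups separated in 8 of 13 coding rows, 3 higher and 5 lower in HGC27-FN1 3′-UTR cells. Over all rows tested, reads per mitochondrial coding read were without overlap and higher in 12.4%, lower in 6.59% and either in 19.0%. For nuclear rows this denominator adds the swing of the mitochondrial total between libraries, which it removes from the mitochondrial rows, so these percentages are no like comparison for the 8 of 13. With 3 libraries against 3, the exact two-sided permutation test of a single row cannot go below 0.1, and it gave 0.1 for each of these 8 rows. Shares of 1 total are not independent of each other, since a gain in one row lowers the others.

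MT-ND4L, MT-ND4 and MT-ND3, all subunits of complex I and adjacent coding genes on the heavy strand, took a larger share. MT-ND4L was 4.0%, 3.95% and 4.26% of the coding reads in HGC27-FN1 3′-UTR cells and 3.47%, 3.34% and 3.44% in HGC27-control cells. MT-ND4 was 14.3%, 14.8% and 14.7% against 13%, 12.5% and 12.7%. MT-ND3 was 2.0%, 2.0% and 1.75% against 1.66%, 1.66% and 1.66%. Relative to the control mean, these shares were 19.0%, 14.7% and 15.6% higher. MT-ND3 varied most within the group, and with HGC27-FN1 3′-UTR replicate 1 left out its difference was 13.1%.

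The rows with a smaller share were MT-CYB, MT-CO1, MT-CO2, MT-ND2 and, by the smallest margin, MT-ATP6. MT-CYB was 5.04%, 4.99% and 4.92% of the coding reads in HGC27-FN1 3′-UTR cells and 5.51%, 5.70% and 5.70% in HGC27-control cells and the mean changed by -11.5% relative to the controls (4.99% ± 0.0593 against 5.63% ± 0.108, SD, n = 3). MT-CO1 was 8.91%, 8.33% and 8.77% against 9.39%, 9.57% and 10.0%. MT-CO2 was 6.06%, 6.04% and 5.97% against 6.45%, 6.63% and 6.95%. The HGC27-FN1 3′-UTR libraries lay closer together in MT-CYB and MT-CO2 than in MT-CO1. MT-ND2, a complex I subunit read from the same strand upstream of MT-CO1, was 7.10%, 7.46% and 7.17% against 8.13%, 7.91% and 7.66%, so that complex I held rows of both directions. MT-ATP6 was 15.8% to 16.2% against 16.2% to 16.4%, and its sign depended on the denominator, turning to 1.67% higher when MT-ND3, MT-ND4L and MT-ND4 were left out of the total.

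**Figure D3:**
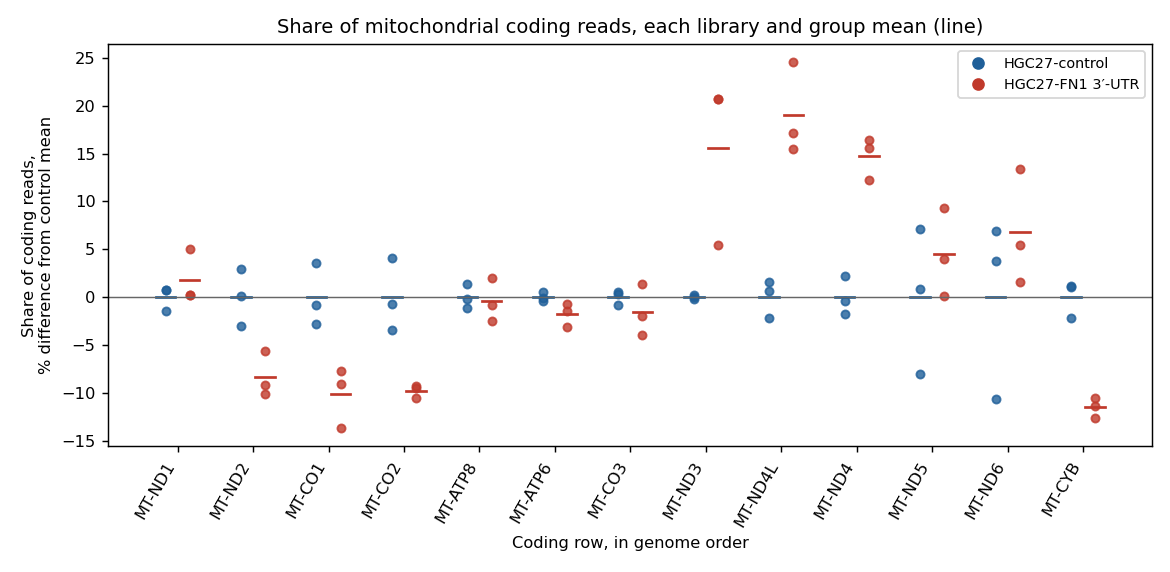
Share of the mitochondrial coding reads taken by each of the 13 coding rows in genome order, as the percent difference from the control mean, with 1 point per library (blue, HGC27-control; red, HGC27-FN1 3′-UTR; n = 3 each) and a line at each group mean. MT-ND3, MT-ND4L and MT-ND4 differ from the controls by 14.7% to 19.0% in the mean, and MT-ND2, MT-CO1, MT-CO2 and MT-CYB by -8.30% to -11.5%.

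The choice of total changed which rows separated. With the reads of MT-RNR2, the large rRNA, as the denominator, 2 coding rows were higher without overlap (MT-ND3 and MT-ND4L, by 10.00% and 13.4%) and 5 lower, and MT-ND4 overlapped. With MT-ND3, MT-ND4L and MT-ND4 left out of the total, 4 rows were higher, those 3 and MT-ND1, and 3 were lower, MT-CO1, MT-CO2 and MT-CYB. These denominators were chosen after the values were seen. MT-ND3 and MT-ND4L were higher, and MT-CO1, MT-CO2 and MT-CYB lower, without overlap under all 4 denominators tried. All 4 were mitochondrial: the coding reads, the summed coding RPKM and the 2 given here. In RPKM, which is per assigned read, MT-CO1, MT-CO2 and MT-CYB did not overlap either, but MT-ND3 and MT-ND4L did. MT-ND3 was at 2761 to 3320 against 2661 to 2991 RPKM, and MT-ND4L at 6433 to 8613 against 6448 to 7297 RPKM.

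Summed by complex, complex I took a larger part of the coding reads. Its 7 rows took 48.1%, 49.4% and 48.9% in HGC27-FN1 3′-UTR cells and 46.9%, 46.1% and 45.2% in HGC27-control cells. Within the difference of 2.76 percentage points, MT-ND4 differed by 1.88, MT-ND4L by 0.651 and MT-ND3 by 0.259. MT-ND5, MT-ND1 and MT-ND6, whose shares overlapped between groups, differed by 0.256, 0.227 and 0.146 points, and MT-ND2 by -0.656 points. Complex IV took 25.8%, 24.8% and 25.0% against 26.4%, 26.9% and 27.6%, and complex III, which is MT-CYB alone, followed the values above. Complex V moved least, at 20.8% to 21.2% against 21.2% to 21.5%. The groups did not overlap in any of the 4 complexes, but in complex V the closest values were 21.17% and 21.23%. No test was made on these sums because 8 of the 13 coding rows were already known to separate, while the other rows overlapped.

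**Figure D4:**
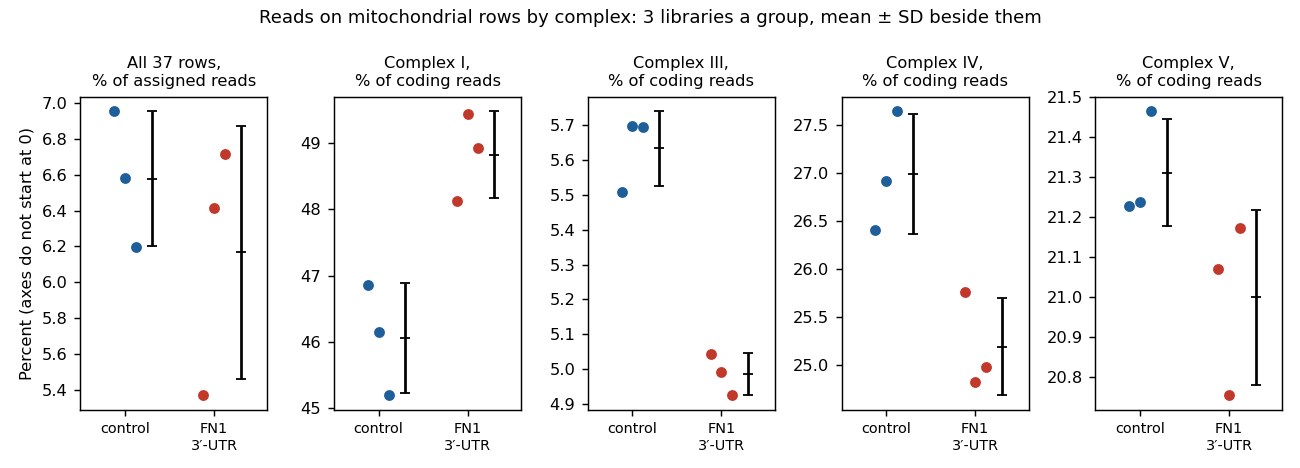
Percent of assigned reads on all 37 mitochondrial rows (left panel) and percent of mitochondrial coding reads on the rows of complexes I, III, IV and V, with 1 point per library (blue, HGC27-control; red, HGC27-FN1 3′-UTR) and the mean ± SD in black; the axes do not start at 0. The groups overlap in the left panel and are apart in the other 4, by the smallest margin in complex V (21.17% against 21.23%). Complex I averages 48.8% against 46.1%.

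Ratios between single rows need no total. The rows were picked for their shares, so the ratios restate those differences and add no support. The RPKM of MT-ND4 over that of MT-CO1 was 1.80, 1.99 and 1.88 in HGC27-FN1 3′-UTR cells and 1.55, 1.46 and 1.42 in HGC27-control cells. MT-ND4L over MT-CYB was 3.05, 3.04 and 3.32 against 2.42, 2.25 and 2.32. The ratios of rows of the same bicistronic mRNA overlapped between groups: MT-ATP8 over MT-ATP6 was 0.999 to 1.05 against 1.01 to 1.03, and MT-ND4L over MT-ND4 was 1.23 to 1.34 against 1.24 to 1.26.

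MT-ND6 is the 1 coding gene of the light strand and makes a subunit of complex I. Its RPKM was 2056, 2658 and 2491 in HGC27-FN1 3′-UTR cells and 2645, 2567 and 2029 in HGC27-control cells, which overlapped. Its share of the coding reads was 2.18% to 2.43% against 1.92% to 2.29% and overlapped as well. Divided by MT-ND5, its neighbour on the heavy strand, it was 1.31, 1.34 and 1.31 against 1.33, 1.29 and 1.26, also with overlap. Divided by MT-CYB, its other neighbouring coding gene, it was 0.975, 1.06 and 0.961 against 0.878, 0.874 and 0.731, without overlap, as was MT-ND5 over MT-CYB at 0.731 to 0.787 against 0.581 to 0.676. The library kit kept strand, but whether the counting used it was not given in the sources used here. If it did not, reads of MT-ND6 and reads of heavy-strand RNA across the same bases cannot be told apart.

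The rRNA rows differed from each other far more than between the groups. MT-RNR2 was at 2830, 3223 and 3316 RPKM in HGC27-FN1 3′-UTR cells and 3346, 3307 and 2929 RPKM in HGC27-control cells. MT-RNR1, the small rRNA, was at 196, 220 and 279 RPKM against 252, 287 and 260 RPKM. Both rows overlapped between groups, with log2 fold changes of -0.03 (SE 0.083) and -0.21 (SE 0.13). The sign of MT-RNR2 turned under 2 scalings, and MT-RNR1 was at -0.10 without HGC27-FN1 3′-UTR replicate 1 and reached -0.36 with another library left out. MT-RNR2 was 11.3 to 14.6 times MT-RNR1 in RPKM, although both are cut from the same precursor. Its row shared 14.0% of its 50-base windows with nuclear transcripts of the MTRNR2L genes, and MT-RNR1 shared 0%.

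All 22 tRNA rows had reads in every library. The strands differed in their medians but overlapped in their rows: the median of the 8 light-strand tRNA rows was 1388 to 1571 RPKM and that of the 14 heavy-strand rows 98.2 to 167 RPKM. The light-strand rows MT-TQ, MT-TP and MT-TE lay among the low rows, with control means of 81.8, 172 and 383 RPKM, and the heavy-strand rows MT-TK and MT-TL1 among the high ones, with 1320 and 1270 RPKM. The light-strand rows held 75.1% to 77.8% of all tRNA reads. MT-TC and MT-TY, the tRNAs for cysteine and tyrosine, which share 1 base on the light strand, were highest, at 5515 to 6848 and 4956 to 6247 RPKM. Their ratio was 1.09 to 1.11 in all 6 libraries. With their neighbours MT-TA and MT-TN in the cluster between MT-ND2 and MT-CO1, they made up 62.6% to 66.1% of the tRNA reads. A tRNA row is 59 to 75 bases long, so these reads may come from precursors as well as from mature tRNA, and this was not tested. As for MT-ND6, whether the counting used strand was not given. Reads on the light-strand tRNA rows may therefore include heavy-strand RNA across the same bases.

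**Figure D5:**
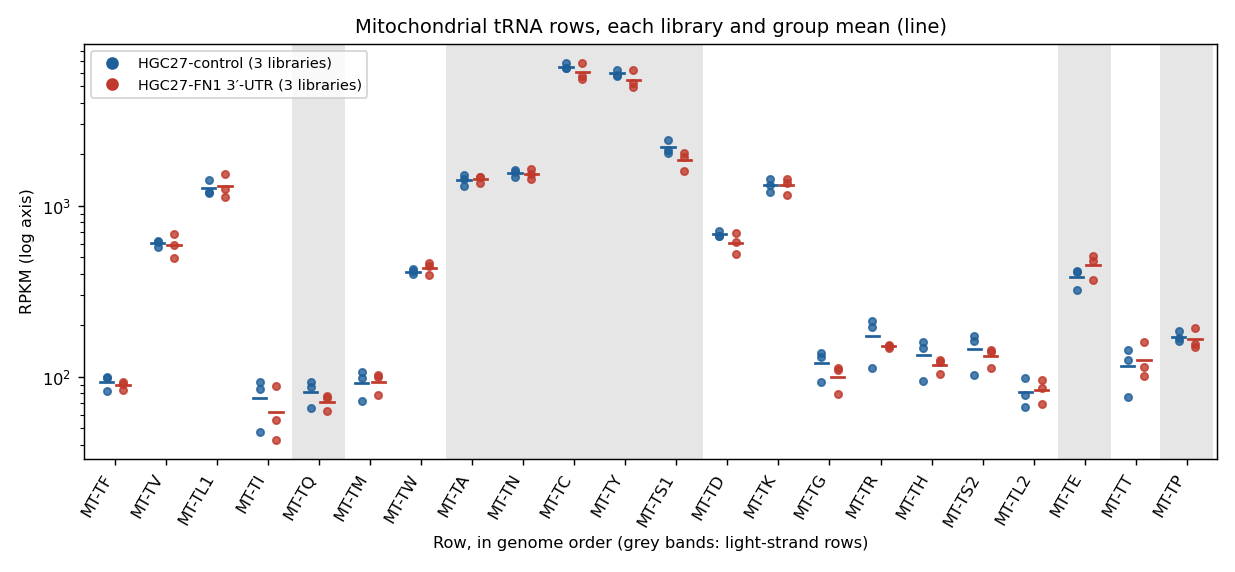
RPKM on a log axis of the 22 tRNA rows of the mitochondrial genome in genome order, with 1 point per library (blue, HGC27-control; red, HGC27-FN1 3′-UTR; n = 3 each), a line at each group mean and grey bands over the light-strand rows. MT-TC and MT-TY reach 4956 to 6848 RPKM, most heavy-strand rows lie near 100 RPKM, and the groups overlap in all rows but MT-TS1.

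MT-TS1, the light-strand tRNA for serine next to MT-CO1, was the tRNA row without overlap in RPKM. It was at 1589, 1937 and 2037 RPKM in HGC27-FN1 3′-UTR cells and 2413, 2132 and 2046 RPKM in HGC27-control cells (log2 fold change -0.25, SE 0.11, limma adjusted p = 0.19). The closest values of the groups were 2037 and 2046 RPKM. Without HGC27-FN1 3′-UTR replicate 1 the log2 fold change was -0.14. As a share of tRNA reads it was 8.08% to 8.90% against 9.19% to 9.96%. MT-CO1, on the other strand, ends at the base before this row and had a log2 fold change of -0.26. If the counting did not use strand, heavy-strand RNA across these bases would count here too, which was not tested.

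MT-TE, the light-strand tRNA for glutamate beside MT-ND6, had the highest fold change of the 37 rows. Its RPKM was 367, 506 and 473 in HGC27-FN1 3′-UTR cells and 411, 413 and 323 in HGC27-control cells, a log2 fold change of 0.23 (SE 0.15, limma adjusted p = 0.37) that ran from 0.11 to 0.365 with 1 library left out. The groups overlapped in RPKM but not in the share of tRNA reads, 1.87%, 2.33% and 1.95% against 1.70%, 1.78% and 1.45%.

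None of the other tRNA rows passed the test. MT-TA and MT-TN, for alanine and asparagine, had log2 fold changes of 0.01 and -0.02, MT-TK, for lysine, -0.0045, MT-TC -0.11, MT-TY -0.13, MT-TL1, for leucine, 0.03, and MT-TV, for valine, -0.04. MT-TD, for aspartate, was at -0.18 and MT-TW, for tryptophan, at 0.07. The signs of MT-TA, MT-TN, MT-TK, MT-TL1 and MT-TV turned with another scaling or with 1 library left out.

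The low heavy-strand rows MT-TI, MT-TG, MT-TR, MT-TH, MT-TS2, MT-TF, MT-TM, MT-TL2 and MT-TT, for isoleucine, glycine, arginine, histidine, the other serine, phenylalanine, methionine, the other leucine and threonine, ranged from -0.28 for MT-TI to 0.15 for MT-TT. Their standard errors ran up to 0.34, the value of MT-TI. MT-TR was called lower when HGC27-control replicate 3 was left out (log2 fold change -0.44, limma adjusted p = 0.012), and was at -0.16 with it. The light-strand rows MT-TQ, for glutamine, and MT-TP, for proline, were at -0.19 and -0.06. Over the 22 tRNA rows, 7 fold changes were above 0 and 15 below, with a median of -0.06.

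The nuclear genome holds copies of mitochondrial genes, and reads can be placed on either. The table listed 211 rows named as such copies, 163 of them above 0 in some library and 54 tested. Together they took 0.288% to 0.383% of the assigned reads. Of the 13 coding rows, 11 shared at least 1 window of 50 bases with a nuclear transcript. The shared part was 49.5% of the windows for MT-CO1, 46.7% for MT-ATP6 and 43.6% for MT-ND2, but 0% for MT-ND3 and MT-ND4L, 3.54% for MT-ND4 and 1.19% for MT-CYB. Rows with a smaller share of the coding reads thus included both highly shared rows and MT-CYB. How reads that match several places were treated was not given in the sources used here, and its part in the differences was not tested.

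The 5 copies with the most reads followed the values of the genes they resemble. Their log2 fold changes were -0.13 for MTATP6P1, -0.17 for MTND2P28, -0.25 for MTCO1P12, -0.11 for MTCO3P12 and -0.26 for MTCYBP18, beside -0.13, -0.23, -0.26, -0.13 and -0.28 for MT-ATP6, MT-ND2, MT-CO1, MT-CO3 and MT-CYB. None of the 5 passed the test. MTATP6P1 alone was at 2382 to 3217 RPKM, a level within the range of the mitochondrial coding rows. Among all 54 copies tested limma called 1 higher and 0 lower, beside 5.62% and 7.36% of all rows. The 1 called, MTATP6P26, held 2, 3 and 3 reads in HGC27-FN1 3′-UTR cells and 0, 0 and 1 in HGC27-control cells, and it passed the filter on low values only through the group where it was higher, so nothing is drawn from it.

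The nuclear genes that act on mitochondrial DNA and RNA were described from 7 lists of 100 genes in all, of which 99 were tested. limma called 4 of them higher and 7 lower at the same threshold, beside the 5.62% and 7.36% of all rows tested, and the median log2 fold change was -0.01. The higher genes lost their call with HGC27-FN1 3′-UTR replicate 1 or 2 or HGC27-control replicate 2 left out, when 0 of the 100 were called higher, and 4 were still called lower. TOP1MT, MYC, TFEB and LONP1 were called lower under 15 of 16 alternatives. With scaling to mitochondrial reads they lost the call at log2 fold changes of -0.19, -0.25, -0.66 and -0.15. The other lower genes, NRF1, SUCLG1 and C12orf65, were called under only 8, 7 and 6 of 16 alternatives, and lost the call with the replicate block.

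The shares of all rows tested to set beside the list counts below are 5.62% higher and 7.36% lower for limma, 12.0% and 17.6% at an unadjusted p under 0.05, and 8.76% and 13.2% for voom. Nothing is read from the counts about a list as a whole.

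The list for transcription held the core machinery. POLRMT, the mitochondrial RNA polymerase, was at 17.5, 16.2 and 18.3 RPKM in HGC27-FN1 3′-UTR cells and 18.5, 19.6 and 19.9 RPKM in HGC27-control cells (log2 fold change -0.16, limma adjusted p = 0.11). TFAM, which packages mitochondrial DNA and activates its promoters, was at 9.43 to 10.1 RPKM against 8.78 to 9.06 RPKM (0.11, limma adjusted p = 0.14). Neither passed the test. TFB2M, the factor that opens the promoter, rose from 15.3 ± 1.08 to 18.1 ± 0.666 RPKM (SD, n = 3; 0.25, limma adjusted p = 0.042). TOP1MT, the mitochondrial topoisomerase, fell from 23 ± 0.523 to 18.8 ± 0.303 RPKM (-0.29, limma adjusted p = 0.0044). TEFM, the elongation factor, was at -0.12 with a limma adjusted p of 0.61. Of 11 genes in the list, 1 was higher and 1 was lower. At an unadjusted p under 0.05, 2 were higher and 2 lower, and voom called 1 higher and 2 lower.

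In the list for stability and decay 2 of 17 genes were higher and 0 were lower by limma, with 3 and 0 at an unadjusted p under 0.05 and 3 and 0 called by voom. SLIRP, which binds mitochondrial mRNAs with LRPPRC, was at 115, 110 and 113 RPKM in HGC27-FN1 3′-UTR cells and 98.6, 93.9 and 103 RPKM in HGC27-control cells (0.19, limma adjusted p = 0.030). LRPPRC, its partner in the stability of these mRNAs, was at 34.9 to 37.4 RPKM against 32.6 to 34.4 RPKM (0.11, limma adjusted p = 0.10). PNPT1, the polynucleotide phosphorylase that degrades mitochondrial RNA, rose from 16.8 ± 0.0758 to 19.2 ± 0.698 RPKM (0.19, limma adjusted p = 0.020). The list for processing, modification and polyadenylation had 0 of 21 genes called in either direction by limma, with 2 higher and 2 lower at an unadjusted p under 0.05 and 0 higher and 1 lower by voom.

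In the list for replication and maintenance of the DNA, limma called 1 of 17 genes in each direction. RNASEH1, which removes RNA primers and RNA–DNA hybrids, rose (0.14, limma adjusted p = 0.043). SUCLG1, a subunit of the citric acid cycle enzyme succinyl-CoA ligase, fell (-0.13, limma adjusted p = 0.033). At an unadjusted p under 0.05, 3 were higher and 1 lower, and voom called 3 higher and 1 lower.

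Of the 10 regulators of mitochondrial biogenesis tested, limma called 0 higher and 3 lower, with 0 and 4 at an unadjusted p under 0.05 and 0 and 4 by voom. TFEB, a transcription factor of lysosomal genes, was at 1.29, 1.28 and 1.42 RPKM in HGC27-FN1 3′-UTR cells and 2.29, 2.28 and 2.34 RPKM in HGC27-control cells (-0.75, limma adjusted p = 0.0026). MYC, a growth regulator, was at 81.1, 78.4 and 81.9 RPKM against 97.4, 102 and 109 RPKM (-0.35, limma adjusted p = 0.0073). The third, NRF1, which activates nuclear genes of respiration, is named after its values were seen and was at -0.20 (limma adjusted p = 0.029). PPARGC1A was at 0.0358 to 0.0562 RPKM, below the level needed for the test.

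Among 13 translation factors 1 was lower, C12orf65, a release factor (-0.23, limma adjusted p = 0.047). Among 10 chaperones and proteases 1 was lower, LONP1, the matrix protease that degrades proteins including TFAM, at 67.5, 65.8 and 67.6 RPKM against 79.3, 79.7 and 79.2 RPKM (-0.25, limma adjusted p = 0.0034). Neither list had a gene called higher by limma or by voom, and voom called 1 and 2 lower. At an unadjusted p under 0.05 the 2 lists had 1 and 0 higher, and 2 and 2 lower.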

How the data were processed

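RNA-seq libraries of HGC27 cells were made by the authors with a strand-specific mRNA kit, trimmed with Trimmomatic 0.36, aligned with STAR 2.5.3a to GRCh38 and counted with featureCounts (Subread 1.5.1), as the submitters' processing notes and the study's methods state. The annotation release and the treatment of strand, duplicates and multiply matching reads were not given in the sources used here. The deposited values are RPKM per gene row. Each value was a whole number of reads within 0.01 (100.0% of values), which gave assigned reads per library, and 3 reads equal 0.0810 to 0.183 reads per 1000000, for counting error only.

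limma 3.58.1 (R 4.3.3) was fitted on log2(RPKM + 0.1) over the 23299 rows that reached an RPKM of 0.1 in 3 libraries or more, as a two-sided test with a trend and Benjamini-Hochberg adjustment, and tested on simulated data, where changed genes with few reads were missed more often; the pass mark was limited to genes with more reads after its first result was seen. Fold changes are on the log2(RPKM + 0.1) scale. Shares and ratios used the recovered reads or RPKM and no model. Replicates of a group differed beyond sampling noise (chi-square 2.50 to 5.66 per gene and 100 to 859 per mitochondrial row). The mitochondrial rows hold many reads, which raises this value. The median coefficient of variation of RPKM in HGC27-FN1 3′-UTR libraries was 12.7% for mitochondrial rows and 8.31% for all rows tested. In HGC27-control libraries these were 7.35% and 8.01%. Groups came from the titles. Intervals are at 95%. The alternatives were other pseudocounts, filters, scalings, limma voom, a replicate block and leaving out each library. All coding, rRNA and tRNA rows with at least 10 reads in every library are named, 6 fixed nuclear genes, up to 2 called genes a direction in each list, and the 5 nuclear copies with most reads. MTTP, a nuclear gene whose symbol resembles those of the copies, was left out of them. The members and lists were chosen with earlier results of these data known. Sequences were read from GENCODE 29 transcripts.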

Additional observations from a re-analysis of the deposited data

How the results depend on the processing

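The counts of mitochondrial rows called (0 higher, 0 lower) held in 14 of 16 alternatives in both directions. limma voom called 1 higher and 5 lower, and leaving out 1 library gave 0 to 1 lower and 0 higher. With the replicate number as a replicate block, 0 rows were called higher and 0 lower. Over all rows tested, the deviations of same-numbered libraries from their group means had correlations of 0.0024, 0.0211 and 0.0103. Such values cannot show whether these libraries were prepared together, and the labels do not say. Assigned reads rose with the replicate number in both groups. The difference in mitochondrial share was -0.41 percentage points of assigned reads and -1.30 of summed RPKM. Of the 4 higher and 7 lower nuclear genes, no filter on low values left 2 higher, scaling to mitochondrial reads 0 higher and 0 lower, median-ratio scaling 9 higher, the replicate block 0 higher and 4 lower, and limma voom 7 higher and 11 lower. Leaving out 1 library gave 0 to 1 higher and 4 lower. Over all rows the calls numbered 3025, against 382 with scaling to mitochondrial reads, 1162 with the block, 5108 with voom and 903 to 1864 without 1 library. The cause was not tested.

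Of 592 pairs of a mitochondrial row and an alternative, 545 kept the direction, and 20 of 37 rows kept it throughout. Scaling to mitochondrial reads turned the log2 fold change of MT-TF to 0.0315, MT-TV to 0.0584, MT-RNR2 to 0.0649, MT-ND1 to 0.0203, MT-TN to 0.0806, MT-TK to 0.0938, MT-ND5 to 0.0596, MT-ND6 to 0.0924 and MT-TP to 0.0428. Median-ratio scaling turned MT-RNR2 to 0.0013, MT-TN to 0.0170, MT-TK to 0.0302 and MT-ND6 to 0.0287, and voom turned MT-TK to 0.0179 and MT-ND6 to 0.0163. Without 1 library the log2 fold changes ran from -0.1545 to 0.0780 for MT-TV, -0.0947 to 0.0360 for MT-RNR2, -0.0970 to 0.1292 for MT-TL1, -0.1670 to 0.0331 for MT-ND1, -0.1344 to 0.1533 for MT-TM, -0.0483 to 0.0627 for MT-TA, -0.0674 to 0.0287 for MT-TN, -0.0699 to 0.0859 for MT-TK, -0.1947 to 0.0044 for MT-ATP8, -0.4428 to 0.0138 for MT-TR, -0.3515 to 0.0300 for MT-TS2, -0.0838 to 0.2003 for MT-TL2, -0.1385 to 0.0638 for MT-ND5, -0.1263 to 0.1020 for MT-ND6, -0.1243 to 0.3318 for MT-TT and -0.1683 to 0.0159 for MT-TP. The share of MT-ATP6 turned to 1.67% higher with another total. Each mitochondrial row held 48 reads or more in each library, and depth limits the low tRNA rows most.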
